A study of Mus musculus with 117 samples.

Results

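A set of 10 genes of the endocrine pancreas was followed: the islet hormone genes Ins1, Ins2, Gcg, Sst, Ppy, Pyy and Iapp, and the beta cell genes Pdx1, Slc2a2 and G6pc2. Every probe set on the 3 array designs annotated to 1 of these symbols alone was taken. This gave 12 probe sets for 9 of the 10 genes, of 36701 probe sets in all; Ins1 had no probe set under its own symbol. RNA had been measured in whole exocrine glands of individual female mice of 2 strains that both carry the Prkdc scid mutation and so lack mature T and B cells. B6-scid stands for B6.CB17-Prkdc scid/SzJ and NOD-scid for NOD.CB17-Prkdc scid/J, the latter on the background of a strain prone to autoimmune diabetes. The 39 gland samples were pancreas at the age of 6 weeks (5 mice of each strain), submandibular gland at 9 and at 15 weeks (5 of each strain and age), and 15-week lacrimal gland, with 5 mice of B6-scid and 4 of NOD-scid. Pancreas was taken at 6 weeks only, so gland and age cannot be told apart when it is set against the others. The labels number the mice within each group and do not say whether glands of 15 weeks with 1 number came from 1 mouse.

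Islets are small clusters of endocrine cells scattered through the enzyme-secreting acinar tissue. Beta cells make insulin and release islet amyloid polypeptide (Iapp) with it, alpha cells make glucagon, delta cells make somatostatin, which restrains the release of both insulin and glucagon, and other islet cells make pancreatic polypeptide (Ppy) and peptide YY (Pyy). These peptides are cut out of longer precursors by convertases and carboxypeptidase E inside secretory granules.

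Levels are MAS5 signals rescaled to the same trimmed mean of 500 on each array, given per mouse or as mean ± SD. A probe set's signal depends on its own probes, so levels of different probe sets are not compared. Strain differences are log2 differences of signal + 32, NOD-scid minus B6-scid, with the standard error (SE); that scale understates differences of low signals. A probe set was tested where its signal reached 100 on at least 4 arrays of the comparison, and was called at a limma p under 0.05 after Benjamini-Hochberg adjustment over all probe sets tested. In whole glands, fewer cells of a type and less RNA per cell cannot be told apart.

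The pancreas samples carried the markers of their label. The 23 acinar markers on the arrays summed to between 2.62e+06 and 3.22e+06 in B6-scid pancreas and between 2.62e+06 and 3.24e+06 in NOD-scid pancreas. In the other glands that sum lay between 8732 and 73011 in every sample except NOD-scid submandibular gland replicate 1 at 9 weeks, at 240209. The results that this sample enters are given with it, followed by the values without it. The ratio of the Actb probe sets at the 3' and the 5' end of the transcript, a measure of RNA integrity, was 2.54 ± 0.467 (SD, n = 5) in B6-scid pancreas and 2.04 ± 0.0421 (SD, n = 5) in NOD-scid pancreas. It ranged from 1.86 to 3.08 and from 1.99 to 2.08, and its part in the strain differences was tested only as a covariate.

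The 3 members with a probe set whose pancreas signals did not overlap between the strains were Sst, Iapp and Gcg, and the promoters of these genes are shown for that reason. Each line gives the 250 bases before the RefSeq start, read along the gene in assembly GRCm38.p6, for Sst at chr16:23890845-23891094 (minus strand), Iapp at chr6:142298175-142298424 (plus strand) and Gcg at chr2:62483654-62483903 (minus strand). Capitals mark matches, on either strand, to the cyclic AMP response element TGACGTCA, to TAAT, the core read by homeodomain factors such as Pdx1, and to the TATA box TATAAA.
Sst: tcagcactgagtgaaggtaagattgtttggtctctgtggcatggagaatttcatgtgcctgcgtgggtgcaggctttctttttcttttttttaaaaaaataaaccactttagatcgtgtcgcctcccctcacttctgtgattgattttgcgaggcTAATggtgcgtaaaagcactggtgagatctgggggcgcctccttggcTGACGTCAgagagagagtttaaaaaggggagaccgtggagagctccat
Iapp: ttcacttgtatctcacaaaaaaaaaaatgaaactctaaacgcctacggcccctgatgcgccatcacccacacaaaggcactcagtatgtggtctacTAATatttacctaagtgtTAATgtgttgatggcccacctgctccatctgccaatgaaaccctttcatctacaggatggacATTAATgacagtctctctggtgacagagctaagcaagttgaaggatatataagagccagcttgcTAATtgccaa
Gcg: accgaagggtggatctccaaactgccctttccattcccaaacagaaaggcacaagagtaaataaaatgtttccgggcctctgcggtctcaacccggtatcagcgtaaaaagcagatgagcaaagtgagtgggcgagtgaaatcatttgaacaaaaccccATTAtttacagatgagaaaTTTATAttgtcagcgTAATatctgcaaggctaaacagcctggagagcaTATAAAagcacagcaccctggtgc
The Sst promoter held 1 TGACGTCA, with its first base 48 bases before the start, a motif present in 1.62% of 27025 RefSeq promoters of this length. TAAT occurred 5 times in the Iapp promoter, with 1 pair overlapping, 2 times in that of Gcg and 1 time in that of Sst, and in 55.3% of all promoters. TATAAA occurred 2 times in the Gcg promoter and in 13.0% of all. These matches describe the reference sequence only; NOD alleles were not analysed here.

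**Figure D1:**
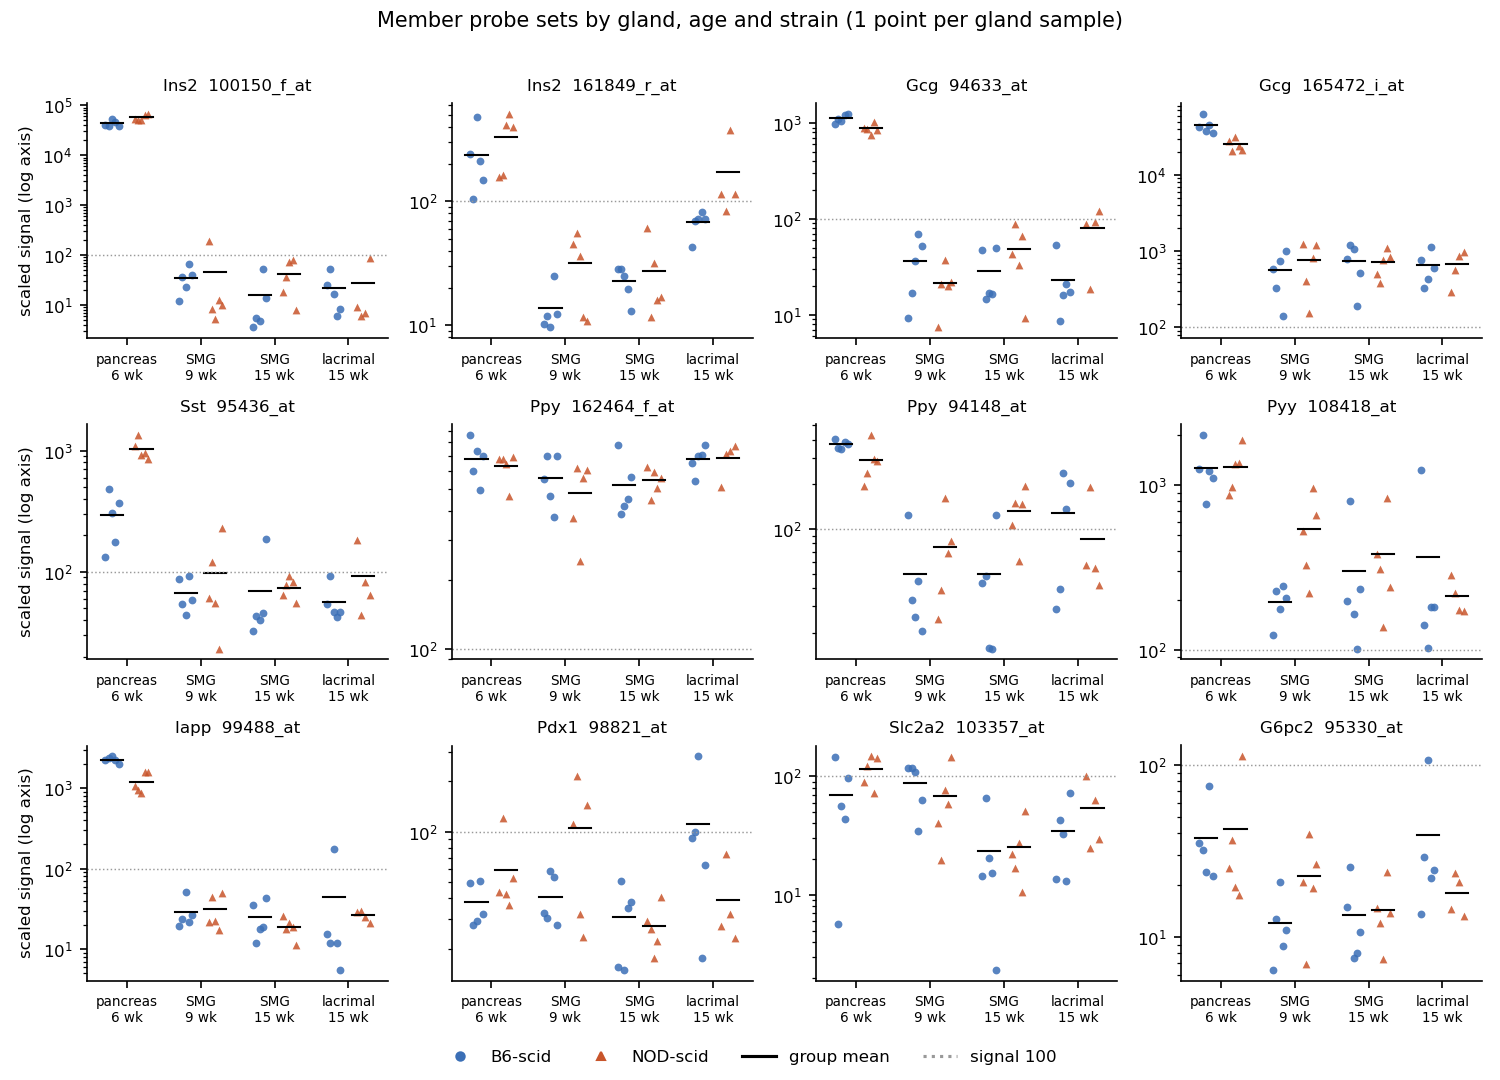
Scaled signal on log axes (each panel with its own range) of the 12 probe sets in pancreas at 6 weeks, submandibular gland (SMG) at 9 and 15 weeks and lacrimal gland at 15 weeks; each point is 1 gland sample, black lines are group means and the dotted line is a signal of 100. For Ins2 100150_f_at, both Gcg probe sets and Iapp all 10 pancreas samples sit above all 29 other samples, and Sst in pancreas is 861 to 1347 in NOD-scid against 132 to 481 in B6-scid.

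Insulin signal was not called between the strains. Ins2 is the mouse counterpart of the human insulin gene. Its probe set 100150_f_at read 39798, 38455, 53882, 46957 and 37686 in B6-scid replicates 1 to 5 and 53444, 51426, 51543, 64390 and 67710 in NOD-scid replicates 1 to 5. Only B6-scid replicate 3, at 53882, lay within the range of the NOD-scid mice. The log2 difference was 0.42 (SE 0.18, 95% interval 0.03 to 0.80), with an unadjusted limma p of 0.0373 and an adjusted p of 0.485. The suffix f marks a probe set for a family of similar sequences, and the coding sequences of Ins1 and Ins2 are nearly identical, so this signal can include Ins1 RNA. The weaker Ins2 probe set 161849_r_at read 104 to 483 in B6-scid and 157 to 511 in NOD-scid pancreas, with a log2 difference of 0.44 (SE 0.42, adjusted limma p = 0.798). Over the 10 pancreata the deviations of both Ins2 probe sets from their strain means correlated (Pearson r = 0.751, exact permutation p = 0.0327; Spearman rho = 0.685, exact permutation p = 0.0413).

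Somatostatin was the member whose strain difference was called. Sst 95436_at read 132, 481, 303, 176 and 369 in B6-scid replicates 1 to 5 and 1086, 1347, 927, 965 and 861 in NOD-scid replicates 1 to 5. Every NOD-scid pancreas lay above every B6-scid pancreas, and the ratio of the strain means was 3.55. Sst rose by 1.82 on the log2 scale in NOD-scid (SE 0.31, 95% interval 1.14 to 2.51, adjusted limma p = 0.0335). It was the 1 probe set called of the 10 member probe sets tested, where 0.442% of the 28733 probe sets tested were called and 9.49% had an unadjusted p under 0.05. With the Actb ratio as a covariate the log2 difference was 2.13 and the call was lost (adjusted limma p = 0.105). Leaving out any of B6-scid replicates 3, 4 and 5 or NOD-scid replicates 1 to 5 also ended the call, with differences between 1.61 and 2.02 over all 10 omissions and adjusted p up to 0.0898.

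Cells that make somatostatin also occur in the gut, so markers of intestine and enteroendocrine cells were read beside Sst. The 14 such markers on the arrays summed to between 11106 and 17817 in B6-scid and between 11070 and 16673 in NOD-scid pancreas, and 0 of the 6 tested were called between strains (0 also at an unadjusted limma p under 0.05). For neurons, which can make somatostatin too, the 8 markers summed to between 1577 and 2051 in B6-scid and between 1760 and 1952 in NOD-scid pancreas, and 0 of 4 tested were called or had an unadjusted p under 0.05. Such sums mostly follow their brightest probe sets, and the part of gut or nerve cells in the Sst difference was not tested.

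**Figure D2:**
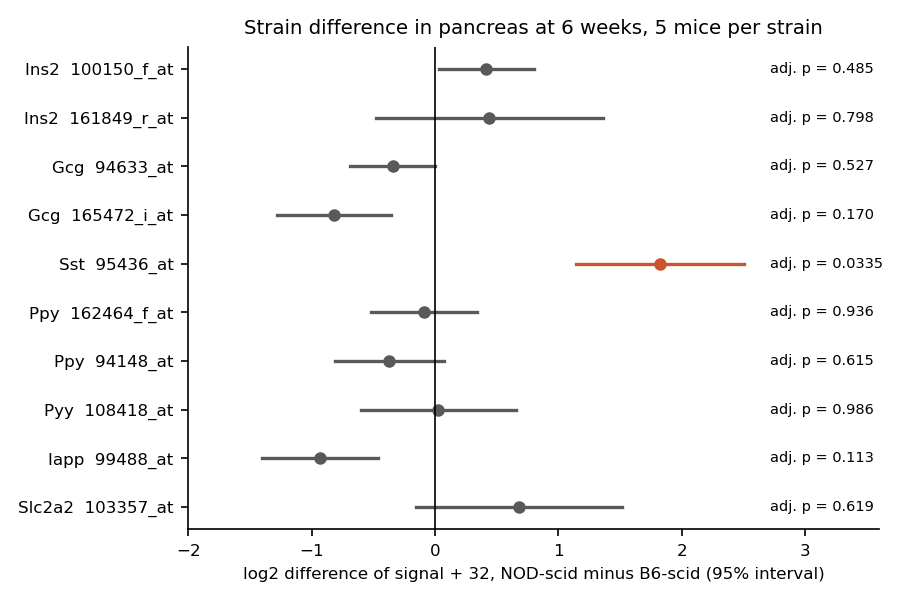
Log2 difference of signal + 32 between NOD-scid and B6-scid pancreas for the 10 member probe sets tested, with 95% intervals from the limma fit and the adjusted p at the right; the orange interval is the 1 probe set called. Sst lies at 1.82, Ins2 100150_f_at at 0.42, Iapp at -0.93 and Gcg 165472_i_at at -0.82, and the intervals of these 4 do not reach 0.

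Iapp, the amyloid peptide stored with insulin, had signals in the opposite order to Ins2. Iapp 99488_at read 2218, 2364, 2507, 2266 and 1978 in B6-scid replicates 1 to 5 and 1054, 940, 864, 1583 and 1593 in NOD-scid replicates 1 to 5. All 5 NOD-scid pancreata lay below all 5 B6-scid pancreata, and the B6-scid mean was 1.88 times the NOD-scid mean. The log2 difference of -0.93 (SE 0.21, 95% interval -1.40 to -0.47) had an unadjusted limma p of 0.00112 and did not pass after adjustment (adjusted p = 0.113). It passed only with an intensity trend in the prior variance, an alternative added after seeing the data (adjusted limma p = 0.0356). On omission of 1 mouse it passed in 0 of 10 fits, and its adjusted p reached 0.391 over all alternatives.

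Glucagon had 2 probe sets that gave differences of unequal size. Gcg 165472_i_at, on design C, read 41949, 63295, 37775, 44612 and 35338 in B6-scid replicates 1 to 5 and 28006, 20549, 31528, 23806 and 21367 in NOD-scid replicates 1 to 5. The strains did not overlap, the B6-scid mean was 1.78 times the NOD-scid mean, and the log2 difference of -0.82 (SE 0.21) did not pass (adjusted limma p = 0.170). It passed only with the intensity trend, added after seeing the data (adjusted limma p = 0.0440). On omission of 1 mouse it passed in 0 of 10 fits, and its adjusted p reached 0.719 over all alternatives. Gcg 94633_at, on design A, read 986, 1103, 1062, 1224 and 1253 in B6-scid replicates 1 to 5 and 880, 876, 759, 1034 and 857 in NOD-scid replicates 1 to 5. Here NOD-scid replicate 4 lay above B6-scid replicate 1, and the log2 difference was -0.34 (SE 0.16, adjusted limma p = 0.527). Between mice of 1 strain the probe sets of Gcg did not vary together (Pearson r = -0.30, exact permutation p = 0.422; Spearman rho = -0.20, exact permutation p = 0.606). Counting all members, 3 of the 10 probe sets tested had no overlap between strains, against 3.00% of all probe sets tested.

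Pancreatic polypeptide and peptide YY, related peptides that act on appetite and on exocrine secretion, showed no called difference. Ppy 94148_at read 344 to 405 in B6-scid and 195 to 429 in NOD-scid pancreas, with a log2 difference of -0.37 (SE 0.20, 95% interval -0.81 to 0.08, adjusted limma p = 0.615). The other Ppy probe set, 162464_f_at, gave -0.09 (SE 0.20, adjusted limma p = 0.936). It was about as bright in the other glands (241 to 783) as in pancreas (466 to 862), and the deviations of both Ppy probe sets did not correlate over the 10 pancreata (Pearson r = -0.08, exact permutation p = 0.770; Spearman rho = -0.19, exact permutation p = 0.604). Pyy 108418_at read 765 to 2010 in B6-scid and 873 to 1866 in NOD-scid pancreas, with a log2 difference of 0.03 (SE 0.28, 95% interval -0.60 to 0.65, adjusted limma p = 0.986).

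The beta cell genes that make no hormone were near the floor of the arrays. Slc2a2, the low-affinity glucose transporter of mouse beta cells, read 5.68 to 146 in B6-scid and 72.0 to 148 in NOD-scid pancreas (log2 difference 0.68, SE 0.38, adjusted limma p = 0.619). Pdx1, a transcription factor needed to form the pancreas and to keep beta cells, read 27.7 to 50.5 and 36.3 to 121. G6pc2, the islet form of the glucose-6-phosphatase catalytic subunit, read 22.4 to 75.0 and 17.4 to 112. Pdx1 and G6pc2 reached a signal of 100 in 1 of 10 pancreata each and were not tested between strains, so a difference was not detectable at these signals.

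Because all members are read from the same RNA, each was also expressed relative to Ins2 in the same mouse, as a log2 ratio; this asks whether members differed from Ins2 by unequal amounts. For Iapp the log2 ratio was -4.23 ± 0.162 (SD, n = 5) in B6-scid and -5.58 ± 0.225 (SD, n = 5) in NOD-scid, a difference of -1.35. For Gcg 94633_at it was -5.22 ± 0.276 (SD, n = 5) and -5.98 ± 0.170 (SD, n = 5), a difference of -0.76. Both had an exact two-sided permutation p of 0.0079, the smallest that 5 against 5 allows, and an adjusted p of 0.0317 over the 8 ratios tested. For Sst the log2 ratio was -7.17 ± 0.754 (SD, n = 5) and -5.76 ± 0.395 (SD, n = 5), a difference of 1.41 (exact permutation p = 0.0159, adjusted p = 0.0423). NOD-scid pancreata held less Iapp and Gcg 94633_at signal and more Sst signal per Ins2 signal. The strains overlapped in 1 mouse of each strain for Sst and not at all for Iapp and Gcg. Each ratio difference also includes the Ins2 difference of 0.42, itself not called. Gcg 94633_at alone differed by -0.34, also not called. The other 5 ratios did not pass: the differences were -0.50 for Ppy 162464_f_at (exact permutation p = 0.0556, adjusted p = 0.111), -0.39 for Pyy and 0.27 for Slc2a2. That Ppy probe set was about as bright in the other glands and itself differed by -0.09, so its ratio cannot be read as that of Ppy. Pdx1 and G6pc2, being near the floor, also have ratios to Ins2 that cannot be read as their own. Over the 6 members that reached a signal of 100 in at least 4 pancreata, an alternative chosen after seeing the data, the same 3 ratios passed (exact permutation, adjusted p = 0.0238 for Iapp and Gcg and 0.0317 for Sst). Without NOD-scid replicate 1, 2, 3 or 4 none of the ratios passed after adjustment (exact permutation, adjusted p of 0.0635 to 0.106 for Iapp, Gcg and Sst). With 4 mice against 5, an adjusted p of 0.0635 was the smallest a lone ratio could reach. A call lost at that value therefore cannot show that a ratio depends on the mouse left out. Differences ranged from -1.42 to -1.28 for Iapp, -0.86 to -0.67 for Gcg and 1.22 to 1.64 for Sst over all 10 omissions. Relative to the mean of Ins2 and Iapp, 0 of 7 ratios passed, and 1, that of Sst, had an unadjusted exact permutation p under 0.05. Sst then differed by 2.08 (adjusted p = 0.0556, the smallest a lone ratio could reach) and Gcg by -0.08 (adjusted p = 0.571).

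**Figure D3:**
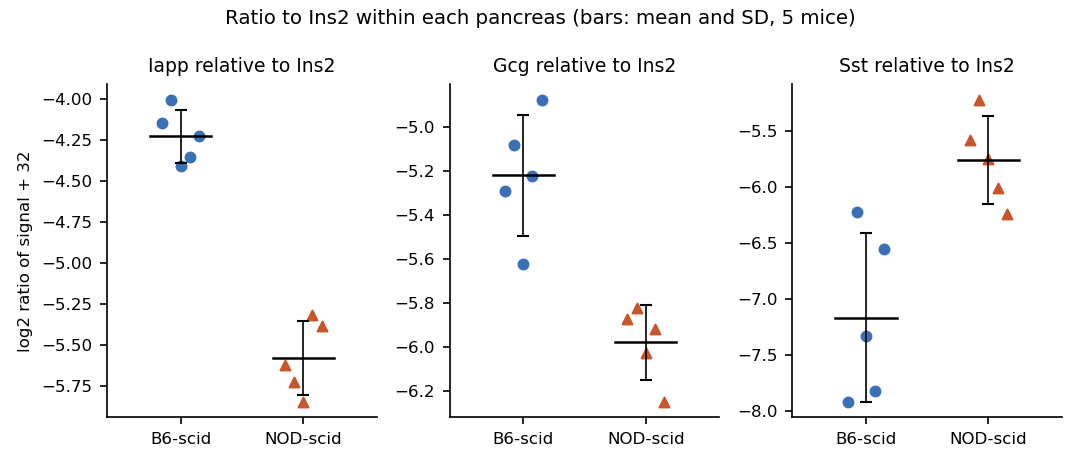
Log2 ratio of signal + 32 of Iapp, Gcg 94633_at and Sst to Ins2 100150_f_at within each pancreas; points are mice, horizontal lines are strain means and bars are SD (n = 5). The Iapp ratio runs from -4.41 to -4.01 in B6-scid and from -5.85 to -5.32 in NOD-scid, and the Sst ratio from -7.92 to -6.23 and from -6.25 to -5.22.

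Between mice of 1 strain, Iapp was the 1 member whose correlation with Ins2 passed after adjustment. Deviations from the strain mean correlated at a Pearson r of 0.765 over 10 pancreata (exact permutation within strain p = 0.00438, adjusted p = 0.0438 over 10 relations) and a Spearman rho of 0.697 (exact permutation p = 0.0160, adjusted p = 0.160). Without the 2 mice farthest from the median of Ins2 r was 0.735 for Iapp, and it moved from 0.19 to 0.583 for Gcg, from -0.24 to -0.774 for Ppy and from 0.624 to 0.703 for the mean of the acinar markers. The adjusted p of Pearson's r exceeded 0.05 on leaving out any mouse other than B6-scid replicates 2 and 4, up to 0.323, while r stayed between 0.688 and 0.842. Over all 10 mice r was -0.29 for Sst, for Pyy -0.08 and for G6pc2 0.38, and none of the other 9 relations passed (exact permutation, adjusted p of 0.447 or higher). With the mean of the acinar markers Ins2 had an r of 0.624 (exact permutation p = 0.0893, adjusted p = 0.447) and a rho of 0.697 (exact permutation p = 0.0328, adjusted p = 0.164), and with the Actb ratio an r of 0.463 (adjusted p = 0.745).

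**Figure D4:**
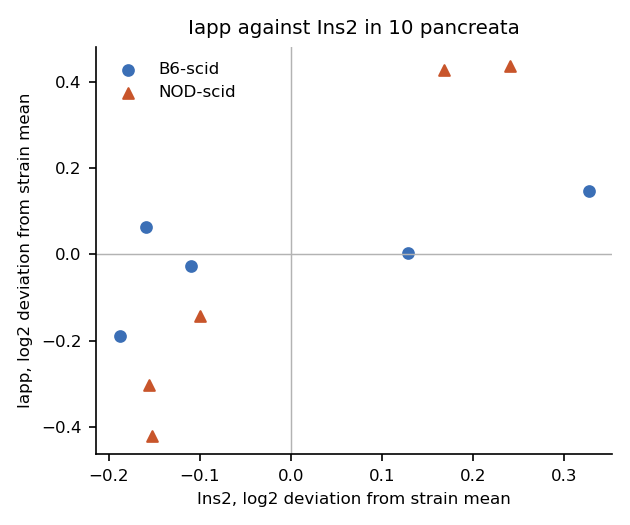
Iapp 99488_at against Ins2 100150_f_at in the 10 pancreata, each as the log2 deviation from its strain mean. Points of both strains run from lower left to upper right (Pearson r = 0.765).

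As a description, the genes whose deviations most resembled those of Ins2 over the 10 pancreata were Coro1a, Arf6, Rnf121, C1s1, Rps19, Rpl10a, Pagr1a, Satb1, Rps3a1 and Ankzf1, with Pearson r from 0.909 to 0.948 where the median of all probe sets tested was 0.00. For Gcg 94633_at they were Slu7, Ptcd2, Drp2, Ginm1, Ccdc136, Arhgef40, Crnn, Map1lc3b, Rfesd and Omp, with r from 0.907 to 0.952. None of these 20 genes belonged to an islet list. Each is an extreme among the correlations of all probe sets tested over the same 10 samples.

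Among genes that process and package prohormones, 14 of the 16 listed were tested in pancreas and 1 was called between strains, lower in NOD-scid; 5 had an unadjusted limma p under 0.05. Over all probe sets tested in pancreas 0.442% were called and 9.49% had such a p. The median log2 difference of the list was 0.13, against 0.02 for all probe sets tested. The gene called was Cpe, carboxypeptidase E, which trims basic residues from the ends of peptides after the convertases have cut. Cpe 99642_i_at read 2200.3, 2455, 3566, 2788 and 2961 in B6-scid replicates 1 to 5 and 1558, 1017, 762, 968 and 1072 in NOD-scid replicates 1 to 5. The strains did not overlap, and Cpe fell by 1.37 on the log2 scale (SE 0.22, adjusted limma p = 0.0239). A further probe set of design A, 99643_f_at, read 2064, 1960, 2286, 1898 and 2028 against 959.5, 1009, 977, 1043 and 997, a fall of 1.01 (SE 0.14, adjusted limma p = 0.0103), and was called on each omission of 1 mouse. The remaining Cpe probe sets, 137173_at and 170012_r_at, were dimmer and disagreed in sign, with log2 differences of -0.61 (adjusted p = 0.588) and 1.38 (adjusted p = 0.339). Both calls were lost with the Actb ratio as a covariate, where the differences were -1.12 (adjusted limma p = 0.222) and -0.98 (adjusted p = 0.120). That of 99642_i_at was also lost on omission of 7 of the 10 mice, with adjusted p up to 0.0669. In lacrimal gland 99642_i_at read 501 to 1311 in B6-scid and 237 to 439 in NOD-scid, and this difference was not called. Its B6-scid and NOD-scid means in submandibular gland were 711 and 569 at 9 weeks and 882 and 848 at 15 weeks. Outside the pancreas 0 genes of the list were called lower in NOD-scid.

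Pam, which amidates the ends of peptides, read 349, 89.0, 176, 376 and 154 in B6-scid and 916, 858, 852, 468 and 685 in NOD-scid pancreas. All NOD-scid mice lay above all B6-scid mice and the log2 difference of 1.70 (SE 0.35) did not pass (adjusted limma p = 0.0773). In the other glands Pam rose in NOD-scid by 3.74 (SE 0.34) in submandibular gland at 9 weeks, by 2.84 (SE 0.34) at 15 weeks and by 3.59 (SE 0.32) in lacrimal gland, with adjusted limma p of 2.9e-06, 0.000121 and 0.000765. The strain difference of Pam was smaller in pancreas than in the mean of the other glands by a log2 of -1.69 (SE 0.40, interaction in limma, adjusted p = 0.0378). That call was lost with a pseudocount of 8 (adjusted p = 0.0947) and on omission of 16 of the 39 samples (log2 of -1.93 to -1.49 over all omissions, adjusted p up to 0.125). Without NOD-scid submandibular replicate 1 at 9 weeks the 9-week difference of Pam was 3.74 (adjusted limma p = 1.98e-05) and the interaction -1.68 (adjusted p = 0.0478). Vgf, a granule protein cut into several peptides, read 389, 1786, 961, 1576 and 627 in B6-scid and 377, 262, 280, 245 and 269 in NOD-scid pancreas (log2 difference -1.60, SE 0.38, adjusted limma p = 0.128). Scg5, the chaperone of prohormone convertase 2, differed by 0.75 (SE 0.22, adjusted limma p = 0.225).

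**Figure D5:**
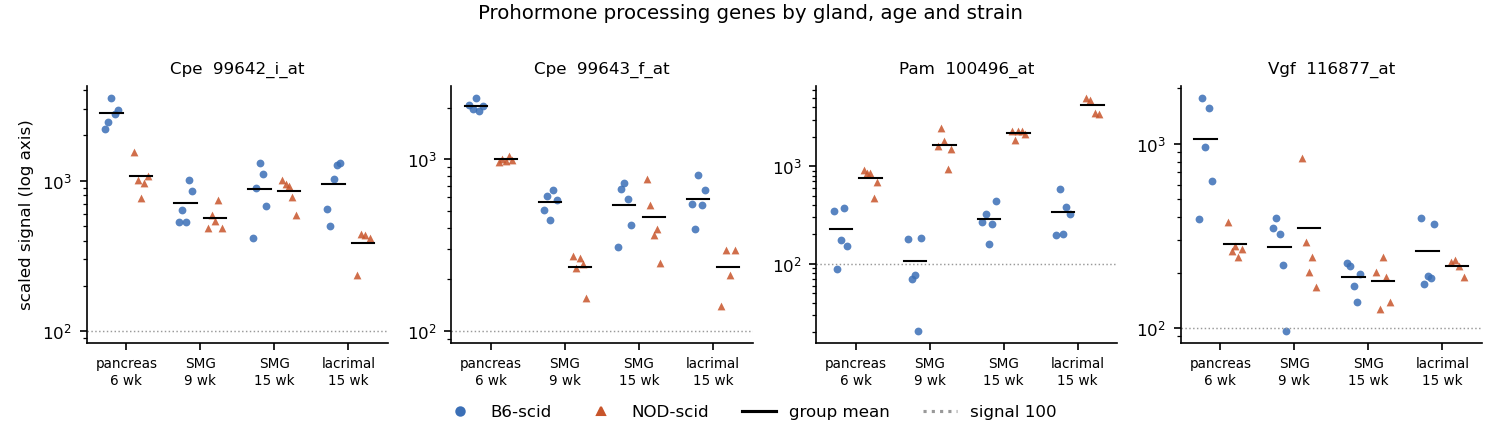
Scaled signal on log axes of 2 Cpe probe sets, Pam and Vgf by gland (SMG, submandibular gland), age and strain; each point is 1 gland sample, black lines are group means and the dotted line is a signal of 100. In pancreas both Cpe probe sets are lower in all NOD-scid mice, and the mean of Pam is higher in NOD-scid in all 4 gland and age groups.

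Genes of glucose sensing and secretion coupling were tested for 15 of the 26 listed and none was called in pancreas (1 had an unadjusted limma p under 0.05; median log2 difference -0.11). The smallest p belonged to Stx1a, a syntaxin of the fusion machinery (log2 difference 1.23, SE 0.38, adjusted p = 0.270), Sytl4, a granule effector of Rab27a (1.03, SE 0.50, adjusted p = 0.57), and Sstr5, a somatostatin receptor (-0.46, SE 0.24, adjusted p = 0.609). Of the islet transcription factors 8 of 19 were tested and none was called (1 at an unadjusted limma p under 0.05; median -0.10). Pax4 differed by -1.08 (SE 0.47, adjusted p = 0.504), Nkx2-2 by -0.73 (SE 0.40, adjusted p = 0.616) and Foxa2 by 0.88 (SE 0.50, adjusted p = 0.633).

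Of the tissue around the islets, 1 of the 23 acinar markers tested was called, Ctrc, a chymotrypsinogen that rose by 4.52 in NOD-scid (SE 0.17, adjusted limma p = 7.89e-07), and the median log2 difference of the acinar list was -0.15. The 8 lists for duct, intestine, neurons, macrophages, T cells, B cells, endothelium and adipocytes had 39 genes tested and 0 called (limma; 2 at an unadjusted p under 0.05). Duct markers summed to between 12154 and 15042 in B6-scid and between 8267 and 12193 in NOD-scid pancreas, macrophage markers to between 9070 and 11539 and between 8258 and 11414, and adipocyte markers to between 3539 and 4285 and between 3974 and 5136. The part of duct or adipocyte content in the strain differences of the hormones was not tested.

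Outside the pancreas Ins2 100150_f_at, Iapp and Gcg 94633_at stayed under a signal of 100 in all but 1 of the 29 samples each, while Ppy 162464_f_at, Gcg 165472_i_at and Pyy read above 100 in all of them. Set against the mean of the 3 other gland groups of its strain, pancreas was higher for 8 of the 11 member probe sets tested in B6-scid, where 33.3% of all probe sets were called and 16.5% were called higher. In NOD-scid it was higher for 9 of 11, where 32.6% were called and 16.1% called higher. Both counts held on leaving out each of the 39 samples, NOD-scid submandibular replicate 1 at 9 weeks among them. Ins2 100150_f_at, Iapp and Gcg 94633_at passed the filter of this fit only through their pancreas signals. So did Ins2 161849_r_at, at 100 or more outside the pancreas in 3 NOD-scid lacrimal samples only. The counts of 8 and 9 are thus partly fixed by the filter and are no test against the shares over all probe sets. For probe sets mostly under 100 outside the pancreas the fitted difference depends on the pseudocount, so a lower bound was taken with every signal under 100 raised to 100. In B6-scid and NOD-scid pancreas Ins2 100150_f_at was at least 429-fold and 549-fold higher, Iapp at least 21.7-fold and 11.7-fold, Gcg 94633_at at least 11.2-fold and 8.63-fold, Sst at least 2.52-fold and 9.10-fold, and Ppy 94148_at at least 3.18-fold and 2.32-fold. The log2 differences of the probe sets above 100 in all other samples were 6.20 and 5.22 for Gcg 165472_i_at and 2.31 and 1.85 for Pyy. Without NOD-scid submandibular replicate 1 at 9 weeks the NOD-scid values were 5.30 and 1.86. Slc2a2, mostly under 100 in the other glands, was called in NOD-scid (adjusted limma p = 0.0114; 0.0160 without that sample) and not in B6-scid (adjusted p = 0.453), and the difference between strains did not pass (adjusted p = 0.721). With signals under 100 raised to 100, the lower bound for Slc2a2 was only 1.05-fold in B6-scid and 1.18-fold in NOD-scid. Ppy 162464_f_at and Pdx1 were called in neither strain. For 4 of the 12 probe sets, Ins2 100150_f_at, both of Gcg and Iapp, all 10 pancreata lay above all 29 other samples, which held for 2.54% of the probe sets tested. Of these 4, only Gcg 165472_i_at would have passed the filter without the pancreas samples.

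Ins2 100150_f_at read 3.56 to 190.7 in the 29 other samples, with a median of 13.7. The highest, 190.7, was NOD-scid submandibular gland replicate 1 at 9 weeks, where the other 4 mice of the group read 5.24 to 12.3. In that sample the sum of the acinar markers was also high, at 240209 against 19622 to 36493 in the other 4. Cela1, an elastase of pancreatic acinar cells chosen after its values were seen, read 19646 against 1563 to 2227. Other islet hormones did not all go the same way there. Iapp read 21.8 against 17.0 to 50.1, Gcg 94633_at 7.42 against 19.8 to 37.7, and Gcg 165472_i_at 1250.2 against 153 to 1190. The cause of these readings was not tested. Iapp read 5.52 to 178 outside the pancreas with a median of 21.8, and Gcg 94633_at 7.42 to 120.4 with a median of 22.1. Gcg 165472_i_at read 141 to 1250.2 there with a median of 753, and Pyy 102 to 1230.3 with a median of 222; whether these signals were expression or background was not tested. Sst read 23.2 to 229.9 outside the pancreas, and only 8 of 10 pancreata exceeded its highest value.

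Between strains, none of the member probe sets tested was called in the other glands. Those tested were Gcg 165472_i_at, both of Ppy, Pyy and, in submandibular gland only, Slc2a2. Sst, Iapp, both of Ins2, Gcg 94633_at, Pdx1 and G6pc2 did not pass the filter in these glands and were not tested there. In submandibular gland at 9 weeks 5 were tested (limma, 1 at an unadjusted p under 0.05), where 0.940% of all probe sets were called and 11.3% had such a p; the count called was also 0 without replicate 1 of NOD-scid. At 15 weeks 5 were tested (1 at an unadjusted p under 0.05), with 0.554% of all called and 6.54% at such a p. In lacrimal gland 4 were tested (0 at an unadjusted p under 0.05), with 0.957% of all called and 13.7% at such a p. The 265 probe sets called there became 123 to 203 on leaving out 1 sample. The largest differences were 1.19 for Pyy at 9 weeks (SE 0.47, adjusted p = 0.315; 1.16 and 0.407 without replicate 1 of NOD-scid) and 1.09 for Ppy 94148_at at 15 weeks (SE 0.39, adjusted p = 0.432). Whether the strain difference was larger in pancreas than in the other glands was tested as an interaction in 1 limma fit of the 39 samples. Here 0 of 11 member probe sets were called (3 at an unadjusted p under 0.05), where 0.462% of all were called and 8.73% had such a p. The interaction was 1.54 for Sst (SE 0.40, adjusted p = 0.0770), -0.89 for Iapp (SE 0.34, adjusted p = 0.359), -0.98 for Gcg 165472_i_at (adjusted p = 0.670) and -0.68 for Gcg 94633_at (adjusted p = 0.555). Without NOD-scid submandibular replicate 1 at 9 weeks these were 1.52, -0.91, -0.89 and -0.71 (adjusted p of 0.0955 or higher). That of Sst passed without B6-scid pancreas replicate 2, NOD-scid submandibular replicate 5 at 9 weeks or NOD-scid lacrimal replicate 1, and that of Iapp passed without B6-scid lacrimal replicate 3, with adjusted p down to 0.0258 and 0.0177. At the highest pseudocount tried both passed (adjusted p = 0.00180 for Sst and 0.0299 for Iapp). Sst and Iapp were mostly under 100 in the other glands, where that pseudocount shrinks strain differences. Their passing there does not show a difference particular to pancreas.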

How the data were processed

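The authors deposited a linear intensity per probe set, made with MAS5 according to the submitters' processing notes, for 39 gland samples on 3 Affymetrix MG-U74 version 2 designs (117 arrays). The 2% trimmed mean was the same on all arrays (2500.5 to 2501.7), so the authors had scaled them. No detection calls were used. Each array was then brought to a trimmed mean of 500, and the designs were joined by mouse. The number of mice limits the precision. Gene names came from the platform annotation, updated through RefSeq (29044 of 29131 probe sets with 1 symbol matched); the files name no build.

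The test on log2(signal + 32) was the moderated linear model of limma (version 3.58.1, R version 4.3.3), fitted to pancreas (10 samples), submandibular gland (20), lacrimal gland (9), and all 39 samples for pancreas against other glands and its interaction with strain. Ratios and correlations used exact permutations in Python 3.11.15. The scripts were tested on simulated data. The members and the 12 marker lists were chosen with earlier results of these data known. A gene's first probe set was that of design A before B before C with the highest pancreas mean. Rule for named genes: list members called in pancreas, with up to 3 more by smallest p (followed for the 3 islet lists; from the acinar list the called gene was named, besides Cela1, chosen after its values were seen, and the 8 other lists are given as counts), and the 10 genes most correlated with Ins2 and with Gcg. Alternatives changed the pseudocount (8, 128), the filter (none, 200), the normalization (quantile), the samples fitted, added the replicate number or the Actb ratio, or left out 1 sample; 2 forms of the prior variance and a smaller family of ratios were added after seeing the data. Replicate numbers did not pair the pancreas samples: same-numbered mice of both strains correlated between -0.02 and 0.04 in their deviations.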

Additional observations from a re-analysis of the deposited data

Results flagged for a closer look

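A sample far from the others of its group was seen in 13 of 96 tests of a member probe set in a group (Dixon's test on log2(signal + 32)); chance flags about 1 in 20. In NOD-scid submandibular gland replicate 1 at 9 weeks Ins2 100150_f_at read 190.7 where the other mice read 5.24 to 12.3. The same probe set read 53.4 in B6-scid submandibular replicate 4 at 15 weeks and 87.2 in NOD-scid lacrimal replicate 4, and Ins2 161849_r_at read 24.7 in B6-scid submandibular replicate 4 at 9 weeks and, as a low value, 43.1 in B6-scid lacrimal replicate 1. Sst read 185.6 in B6-scid submandibular replicate 5 at 15 weeks and 92.3 in B6-scid lacrimal replicate 2. Iapp read 50.9 in B6-scid submandibular replicate 3 at 9 weeks and 178.0 in B6-scid lacrimal replicate 3; in this lacrimal sample G6pc2 also stood apart, at 106.6. Pyy read 1230.3 in B6-scid lacrimal replicate 1. In pancreas the samples that stood apart were NOD-scid replicate 2 for Pdx1, at 121.1, and NOD-scid replicate 4 for Ppy 162464_f_at, at the low value of 466. All are single readings of 1 array each.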

How the results depend on the processing

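The number of member probe sets called between strains in pancreas was 1, and 0 with a replicate block or with the Actb ratio as a covariate, 3 with an intensity trend in the prior variance (Sst, Iapp and Gcg 165472_i_at), and 0 to 1 on leaving out each mouse; under the other alternatives it was 1. The number called for the difference between pancreas and the other glands was 0, and 2 with the highest pseudocount tried and 0 to 1 on leaving out each sample. Member counts in the other comparisons did not move. The 3 ratios called stayed 3 over the 6 members that reached a signal of 100 in at least 4 pancreata. They became 0 relative to the mean of Ins2 and Iapp and 0 to 4 on leaving out each mouse. The 1 relation with Ins2 called became 0 to 1. Over all probe sets, the 127 called in pancreas became 43 with the replicate block, 42 with the Actb ratio, 242 with the intensity trend and 295 in 1 fit of all 39 samples; the 265 of lacrimal gland became 11, 253, 504 and 650, and at most 176 without B6-scid replicate 1 or 3 or any NOD-scid sample. With the replicate block the Sst difference of 1.82 had an adjusted limma p of 0.140 and the Cpe differences of -1.37 and -1.01 had 0.241 and 0.179, and the lacrimal Pam difference had 0.0609; the block changed no other member's call, no sample correlated best with its own number except replicate 4, and the cause of the lost calls was not tested.

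Directions that turned belonged to differences that were not called. Pyy in pancreas was -0.23 with the Actb ratio and -0.13 to 0.21 on leaving out each mouse, and Ppy 162464_f_at was -0.19 to 0.013. The ratio differences were 0.050 for Pdx1 with a pseudocount of 8 (-0.33 to 0.046 on leaving out each mouse) and -0.0855 for Slc2a2 with the highest pseudocount (-0.0046 to 0.54); relative to the mean of Ins2 and Iapp they were 0.17 for Ppy, 0.29 for Pyy, 0.59 for Pdx1 and 0.27 for G6pc2. The correlations with Ins2 under quantile normalization were -0.0833 for Gcg, 0.11 for Pdx1 and 0.00020 for Slc2a2, and on leaving out each mouse -0.011 to 0.42, -0.32 to 0.083 and -0.52 to 0.049, with -0.40 to 0.42 for Pyy. Signals under 100, as of Pdx1, G6pc2 and most of Slc2a2, are near the floor of the arrays and limit what can be read from them.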
